A study of Mus musculus with 2 samples.

Results

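Interferon-stimulated genes were followed through the cell classes of mouse retina after sodium iodate (NaIO3) and after phosphate-buffered saline (PBS). The set has 43 genes named by role. It holds the ligand Ifng, the receptor chains Ifnar1, Ifnar2 and Ifngr1, and 39 targets of interferon signalling. Of the 43 genes, 42 had a row among the 31053 genes of the deposited matrices and 38 of these were targets; Mx2 was not analysed here. NaIO3 is toxic to the pigment epithelium behind the retina and is used to bring about photoreceptor loss. The NaIO3 mice received 20 mg per kg into a vein and the PBS mice the same volume of vehicle, and eyes were taken on day 7. Retinas of 6 mice were pooled into 1 single-cell library in each group. Differences between the groups therefore have no replicate check, and no p-value is given. The labels used here give neither strain nor age. They call both libraries CD11b+ microglia, but beads against CD11b, a surface protein of microglia and other myeloid cells, are named for the NaIO3 pellets alone, so treatment and bead selection cannot be told apart in what follows.

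Interferons are secreted proteins that cells release on sensing viral or misplaced nucleic acid. Type I interferons bind the receptor IFNAR1/IFNAR2 and activate a complex with STAT2 and IRF9 that binds the interferon-stimulated response element (ISRE). Interferon gamma, the type II ligand made mainly by NK and T cells, binds IFNGR1/IFNGR2 and acts through the gamma-activated site (GAS), and both routes switch on antiviral effectors and guanylate binding proteins.

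Cells were assigned to classes by marker genes that are not in the set. Levels are UMIs (unique molecular identifiers, 1 per captured transcript) summed over a class in a library, per 1000000 UMIs of that class (CPM). The NaIO3 library gave 5502 rods, 166 cones, 508 bipolar cells, 496 Müller glia, 116 endothelial cells, 1466 microglia, 46 dendritic cells and 61 NK/T cells. The PBS library gave 5215 rods, 116 cones, 60 bipolar cells, 39 Müller glia, 3 endothelial cells, 11 microglia and neither dendritic nor NK/T cells. Rods held 21243858 UMIs in NaIO3 and 18922439 UMIs in PBS, so 1 UMI was worth 0.0471 CPM in NaIO3 rods and 0.0528 CPM in PBS rods. In the 11 PBS microglia 1 UMI was worth 30.9 CPM, which limits every statement about that class. The microglia label held for 15.5% of kept NaIO3 cells and 0.197% of kept PBS cells. The libraries shared 24 cell barcodes. All intervals are 95% intervals and cover counting error only.

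Of the 43 genes, 32 had a promoter entry in RefSeq (build GRCm38.p6, 250 bases before to 50 after the transcription start). The ISRE, searched on both strands as GAAA, any 2 bases and GAAA again, was found in 17 of these genes, which is 53.1% of them, and in 3.99% of all 27025 genes with an entry. The 17 genes were all targets, 60.7% of the 28 targets with an entry. The GAS, searched as TTCNNNGAA, which reads the same on both strands, was found in 12 of the 32 genes (37.5%) and in 9.55% of all genes. A match describes letters in these windows, not a bound site. The windows of 8 targets are printed 5′ to 3′ on the gene's strand because these genes carry the differences described below and show how the element is placed; capitals mark the ISRE letters, which begin and end with TTTC where the match lies on the opposite strand.
Ifit1: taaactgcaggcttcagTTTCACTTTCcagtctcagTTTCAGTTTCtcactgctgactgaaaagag
Ifit3: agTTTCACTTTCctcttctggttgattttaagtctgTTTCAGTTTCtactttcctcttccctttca
Ifit3b: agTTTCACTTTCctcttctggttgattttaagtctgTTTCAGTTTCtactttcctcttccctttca
Isg15: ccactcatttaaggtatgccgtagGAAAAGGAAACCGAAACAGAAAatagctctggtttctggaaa
Rsad2: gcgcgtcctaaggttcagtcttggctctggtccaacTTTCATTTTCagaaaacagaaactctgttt
Bst2: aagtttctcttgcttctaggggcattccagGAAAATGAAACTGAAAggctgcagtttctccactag
Stat2: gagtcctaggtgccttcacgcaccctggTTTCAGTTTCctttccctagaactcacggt
Gbp7: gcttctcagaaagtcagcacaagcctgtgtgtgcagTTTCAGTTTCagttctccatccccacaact
These windows lie at Ifit1 at chr19:34640768-34640833 (plus strand), Ifit3 at chr19:34583371-34583436 (plus strand), Ifit3b at chr19:34607767-34607832 (plus strand), Isg15 at chr4:156200855-156200920 (minus strand), Rsad2 at chr12:26456543-26456608 (minus strand), Bst2 at chr8:71537567-71537632 (minus strand), Stat2 at chr10:128270248-128270305 (plus strand) and Gbp7 at chr3:142530247-142530312 (plus strand). Ifit3 and Ifit3b, neighbouring copies, had the same 66 letters, with the nearer match 122 bases before the Ifit3 start and 154 bases before the Ifit3b start. Isg15 carried 3 overlapping matches in tandem and Bst2 carried 2.

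The first comparison asked where in the retina the targets were found. Summed over the 38 targets, endothelial cells had the highest level in the NaIO3 library, at 9814 CPM (9597 to 10035, exact Poisson interval). Microglia followed at 6784 CPM, dendritic cells at 4455 CPM, NK/T cells at 3437 CPM and Müller glia at 2685 CPM. The neurons were lower, with 934 CPM in rods, 571 CPM in cones and 327 CPM in bipolar cells, and no 2 of these intervals overlapped. The sums lean on a few abundant targets, such as Ifi27l2a (1822 CPM) and Bst2 (977 CPM) in microglia and Ifitm3 (2744 CPM) in endothelial cells. The median over targets was 154 CPM in endothelial cells, 72.1 CPM in dendritic cells and 69.9 CPM in microglia. It was 56.8 CPM in NK/T cells, 53.3 CPM in Müller glia and 12.8 CPM in rods. Taken gene by gene, 24 of 38 targets were highest in endothelial cells, 12 in microglia and 2 in dendritic cells, and in 28 cases the interval was apart from that of the next class. Without the 1 cell with most target UMIs in each class, endothelial cells were highest for 21 targets, microglia for 14, dendritic cells for 2 and Müller glia for 1.

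**Figure D1:**
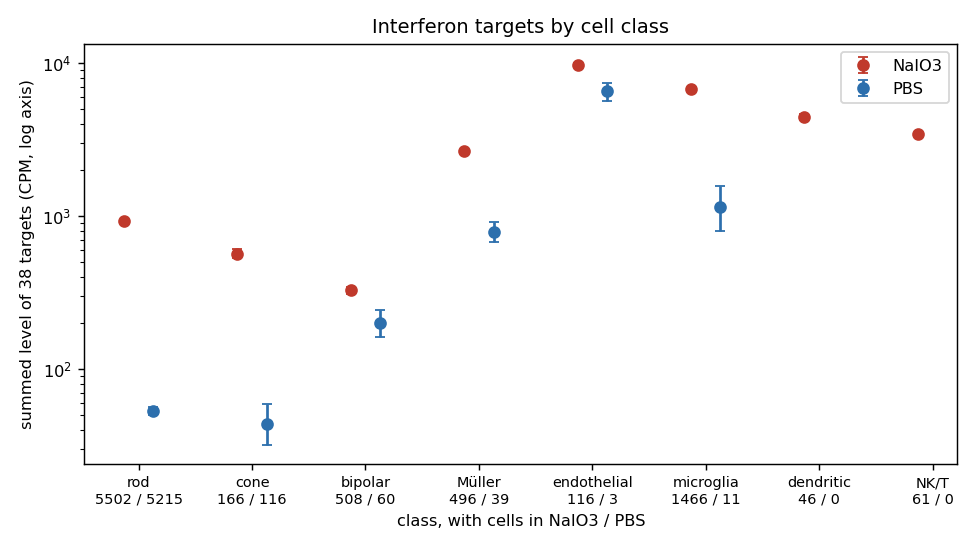
Summed level of 38 interferon targets in CPM (log axis) by class, NaIO3 left of PBS within each class; bars are 95% exact Poisson intervals and the numbers below are cells in NaIO3 / PBS. NaIO3 rods were at 934 CPM and PBS rods at 53.2 CPM, and endothelial cells were the highest class in both libraries.

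Between the libraries, the summed level was higher in NaIO3 in all 5 classes compared. It was 934 CPM in NaIO3 rods and 53.2 CPM in PBS rods, a ratio of 17.6 (16.5 to 18.7, exact conditional binomial interval). In cones it was 571 CPM in NaIO3 and 44.2 CPM in PBS, a ratio of 12.9 (9.58 to 17.8). Cone markers summed to 16838 CPM in NaIO3 cones and 48144 CPM in PBS cones, and rod markers to 18707 CPM in NaIO3 cones and 17537 CPM in PBS cones. Microglia had 6784 CPM in NaIO3 and 1144 CPM in PBS, from 37 PBS UMIs, a ratio of 5.93 (4.30 to 8.42). Müller glia had 2685 CPM in NaIO3 and 788 CPM in PBS, a ratio of 3.41 (2.94 to 3.97). Müller markers summed to 15927 CPM in NaIO3 Müller glia and 25634 CPM in PBS Müller glia. Rod markers there summed to 18429 CPM in NaIO3 and 5687 CPM in PBS. What this unequal share of rod RNA adds to the cone and Müller ratios was not tested. Bipolar cells had 327 CPM in NaIO3 and 202 CPM in PBS, a ratio of 1.62 (1.32 to 2.01). One PBS bipolar cell held 50 of the 98 PBS target UMIs, and without the cell with most target UMIs in each library the bipolar ratio was 3.13 (2.34 to 4.27). Endothelial cells had 9814 CPM in NaIO3 and 6543 CPM in PBS, but the PBS value rests on 3 cells, 1 of which held 181 of 222 target UMIs. Single cells were also prominent in NaIO3: 1 endothelial cell held 1179 target UMIs among its 12633 UMIs, and 1 Müller cell 1225 among 16143.

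A gene was counted as higher or lower at 2 times or more, with at least 20 UMIs summed over the libraries and at least 5 CPM in either; a count of 0 was set at 3 UMIs, and the fold is then written as "at least". A gene under 5 CPM in PBS enters only through its NaIO3 level, and can then be called higher but not lower. This holds for all genes tested as well. In rods 27 of the 42 genes had enough counts to be tested, of which 25 were higher and 0 lower. Of all 10119 genes tested in rods, 14.3% were higher and 3.4% lower. Among the genes called higher in rods, only Stat2, Irf9 and Irf7 reached 5 CPM in PBS, so for the others the call is no test of direction. In cones 16 of 18 tested were higher and 0 lower (all genes tested: 11.6% higher, 5.46% lower). In Müller glia 21 of 38 tested were higher and 1 was lower (all genes tested: 17.5% higher, 14.8% lower). In bipolar cells 3 of 20 tested were higher and 2 lower (all genes tested: 11.6% higher, 7.71% lower), and in microglia 6 of 41 tested were higher and 1 was lower (all genes tested: 6.24% higher, 25.5% lower). TMM scaling, which centres the bulk of genes, shifted all log2 ratios by -0.38 in rods, -0.11 in cones, 0.10 in Müller glia and 0.79 in microglia. With it, all rod genes split into 800 higher and 815 lower in place of 1443 and 344, with 24 of the 42 genes higher and 1, Ifngr1, lower. In cones all genes then split into 889 and 649 in place of 1087 and 513, with 16 of the 42 higher, and in microglia into 1635 and 1375 in place of 629 and 2567, with 16 of the 42 higher.

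**Figure D2:**
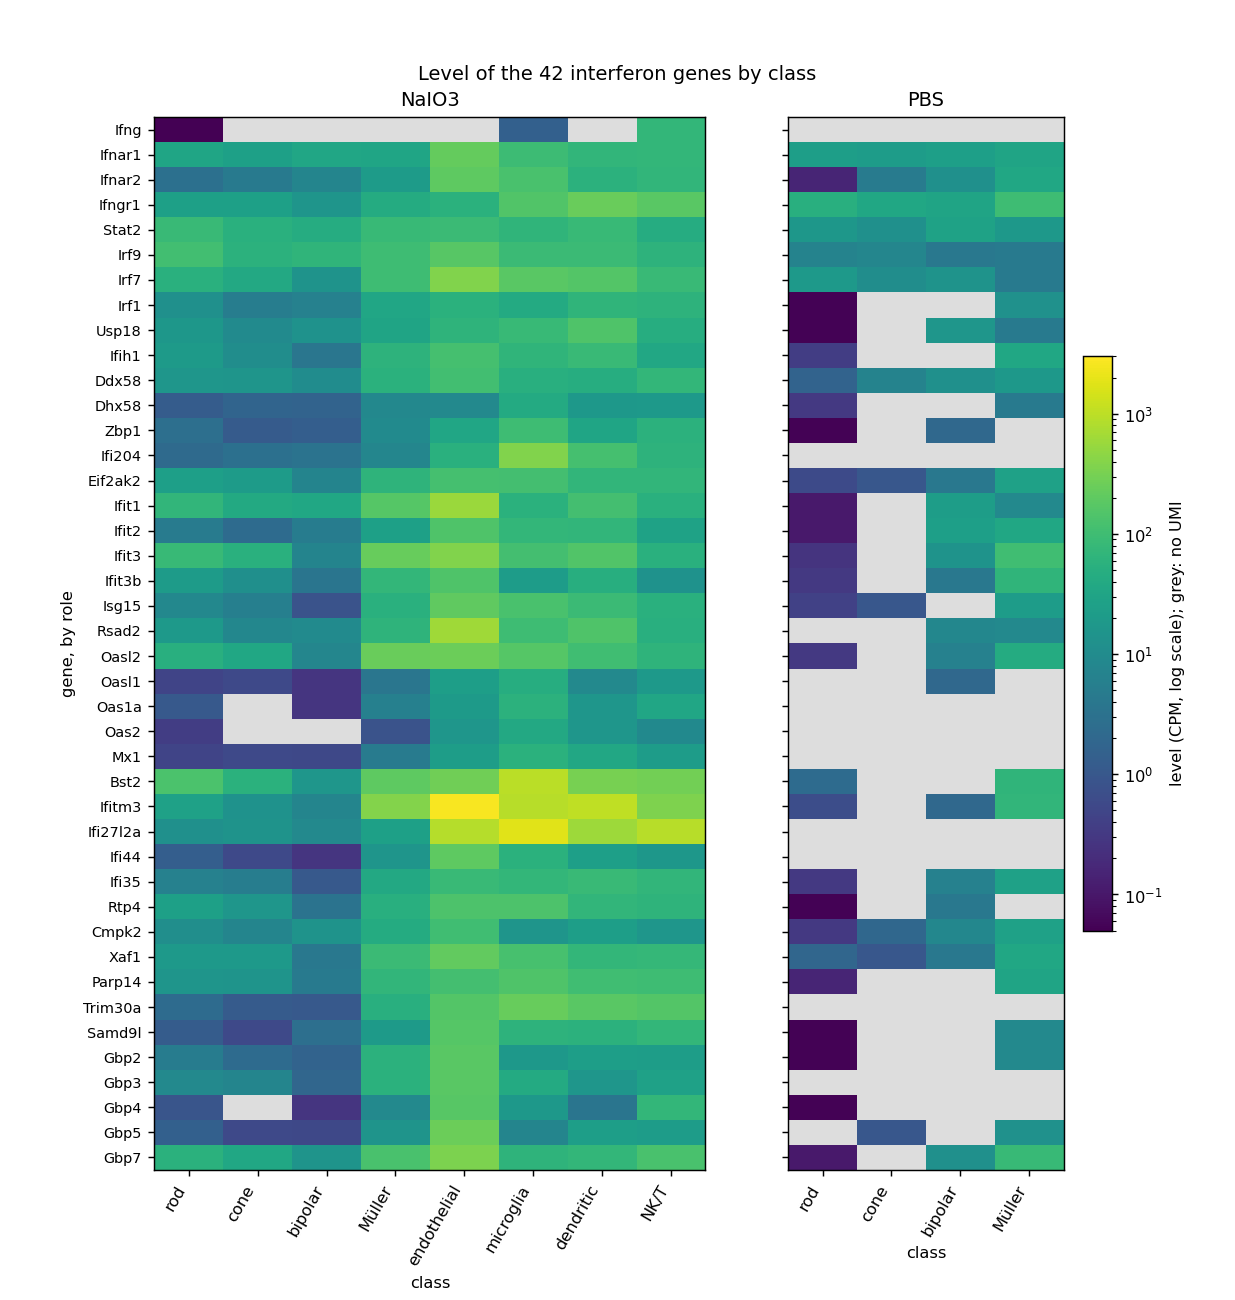
Level of the 42 interferon genes (rows, by role) in each class (columns) of the NaIO3 and PBS libraries, in CPM on a log colour scale, with grey for no UMI; PBS classes with fewer than 39 cells are left out. NaIO3 rods have a UMI of all 42 genes, and PBS cones are grey for 30 of 42.

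Ifng had 245 UMIs in 78 NaIO3 barcodes and 0 UMIs among 26605477 in PBS, where 3 UMIs would be 0.113 CPM. Of these, 119 UMIs were in NK/T cells (73.8 CPM), 24 in microglia, 1 in rods, 1 in a barcode that did not pass the filters and 100 in cells over the marker cuts of several classes. The Ifng level in microglia, 1.47 CPM (0.945 to 2.19), was below the 2.87 CPM that free RNA of the other classes would give by the estimate described below. Of the 77 kept cells with an Ifng UMI, 76 had a UMI of an NK/T marker, and 60 were over the NK/T cut, 30 of them over the microglia cut as well. These cells were large, with a median of 37368 UMIs, and the NK/T class itself had 6667 CPM of summed microglia markers, against 25673 CPM in NaIO3 microglia. How many hold 2 cells was not tested. Among 20 other interferon ligands, type I, type III and others, 16 had 0 UMIs in NaIO3 and 18 had 0 UMIs in PBS. Ifnb1, which encodes interferon beta, had 19 UMIs in NaIO3 and 0 in PBS, and all 19 came from 1 Müller cell of 2117 UMIs. That cell had 27870 CPM of targets, against 2681 CPM in the other NaIO3 Müller glia. The remaining 8 NaIO3 UMIs were spread over Ifna13, Ifnk and Ifnz.

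Of the 3 receptor chains none was called higher in any of the 5 classes, but Ifnar2 was under 5 CPM in rods and cones of both libraries and was not tested there. Ifngr1, the ligand-binding chain for interferon gamma, passed the fold downwards in Müller glia and microglia, in Müller glia not when the mitochondrial limit was lifted. Rods had 562 UMIs (26.5 CPM) in NaIO3 and 990 UMIs (52.3 CPM) in PBS, a ratio of 0.506 (0.455 to 0.561). Under TMM scaling the ratio in rods was 0.388 and passed the fold downwards, as it did with a mitochondrial limit of 5%. Müller glia had 43.5 CPM in NaIO3 and 97.4 CPM in PBS, a ratio of 0.447 (0.292 to 0.719). Microglia had 151 CPM in NaIO3 and 619 CPM in PBS, from 20 PBS UMIs, a ratio of 0.244 (0.158 to 0.401), in a class where 25.5% of all genes were lower. In bipolar cells the ratio was 0.503 (0.281 to 0.956), and in cones it was 0.750 with an interval that covers 1 (0.475 to 1.19). Ifnar1 had 32.5 CPM in NaIO3 rods and 23.5 CPM in PBS rods, a ratio of 1.39 (1.23 to 1.57) that became 1.06 under TMM scaling. Ifnar2, its partner chain, had 63 UMIs in NaIO3 rods and 3 UMIs in PBS rods, a ratio of 18.7 (6.1 to 93.1). Its level in NaIO3 rods was 1.45 times the 2.05 CPM that free RNA of the other classes would give by the estimate described below. At 2.97 CPM in NaIO3 rods it was 1.5% of its endothelial level of 197 CPM, while Ifnar1 in rods was 14.5% of its endothelial level of 225 CPM.

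The signal and transcription factors were higher in rods in 4 of 4 cases. Irf9, the DNA-binding partner of STAT2, had 2318 UMIs (109 CPM) in NaIO3 rods and 129 UMIs (6.82 CPM) in PBS rods, a ratio of 16.01 (13.4 to 19.3). Stat2 had 1819 UMIs (85.6 CPM) in NaIO3 rods and 314 UMIs (16.6 CPM) in PBS rods, a ratio of 5.16 (4.58 to 5.84). Both had UMIs in PBS rods. In the NaIO3 library the rod level was next below that of endothelial cells, with Stat2 at 95.5% and Irf9 at 63.0% of the endothelial level. The order with dendritic cells was not resolved, at 82.9 CPM (60.7 to 111) for Stat2 and 90.2 CPM (66.9 to 119) for Irf9. The Stat2 interval of endothelial cells, 70.1 to 113 CPM, also covered the rod level. Irf7, which amplifies type I interferon expression, had 1140 UMIs in NaIO3 rods and 361 UMIs in PBS rods, a ratio of 2.81 (2.50 to 3.18). Irf1, a main target of interferon gamma, had 271 UMIs in NaIO3 rods and 1 UMI in PBS rods, a ratio of 241 whose interval starts at 42.96; as a mean of per-cell CPM the ratio was 654. Irf9 was also higher in cones (57.7 CPM in NaIO3 and 7.86 CPM in PBS), bipolar cells (67.6 CPM in NaIO3 and 4.12 CPM in PBS) and Müller glia (100 CPM in NaIO3 and 4.43 CPM in PBS). In microglia it was at 90.3 CPM in NaIO3 and 124 CPM in PBS from 4 PBS UMIs, a ratio of 0.729 (0.284 to 2.68). Usp18, which turns the type I receptor off, had 352 UMIs in NaIO3 rods and 1 UMI in PBS rods. It had its highest level in dendritic cells, at 144 CPM.

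Among the 6 sensors of foreign nucleic acid, Ifih1, Ddx58 and Eif2ak2 were higher in rods. Eif2ak2, the kinase PKR, had 535 UMIs in NaIO3 rods and 11 UMIs in PBS rods, a ratio of 43.3 (24.0 to 87.3). Ifih1, which encodes the RNA sensor MDA5, had 421 UMIs in NaIO3 rods and 7 in PBS rods, a ratio of 53.6 (25.8 to 134). Ddx58, which encodes RIG-I, had 339 UMIs in NaIO3 rods and 32 in PBS rods, a ratio of 9.44 (6.56 to 14.0). Dhx58, Zbp1 and Ifi204 stayed below 5 CPM in rods of both libraries. Their highest levels were in microglia, where Ifi204, a DNA sensor of the PYHIN family, had 376 CPM in NaIO3 and 0 of 32330 UMIs in PBS, at least 4.05-fold higher.

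**Figure D3:**
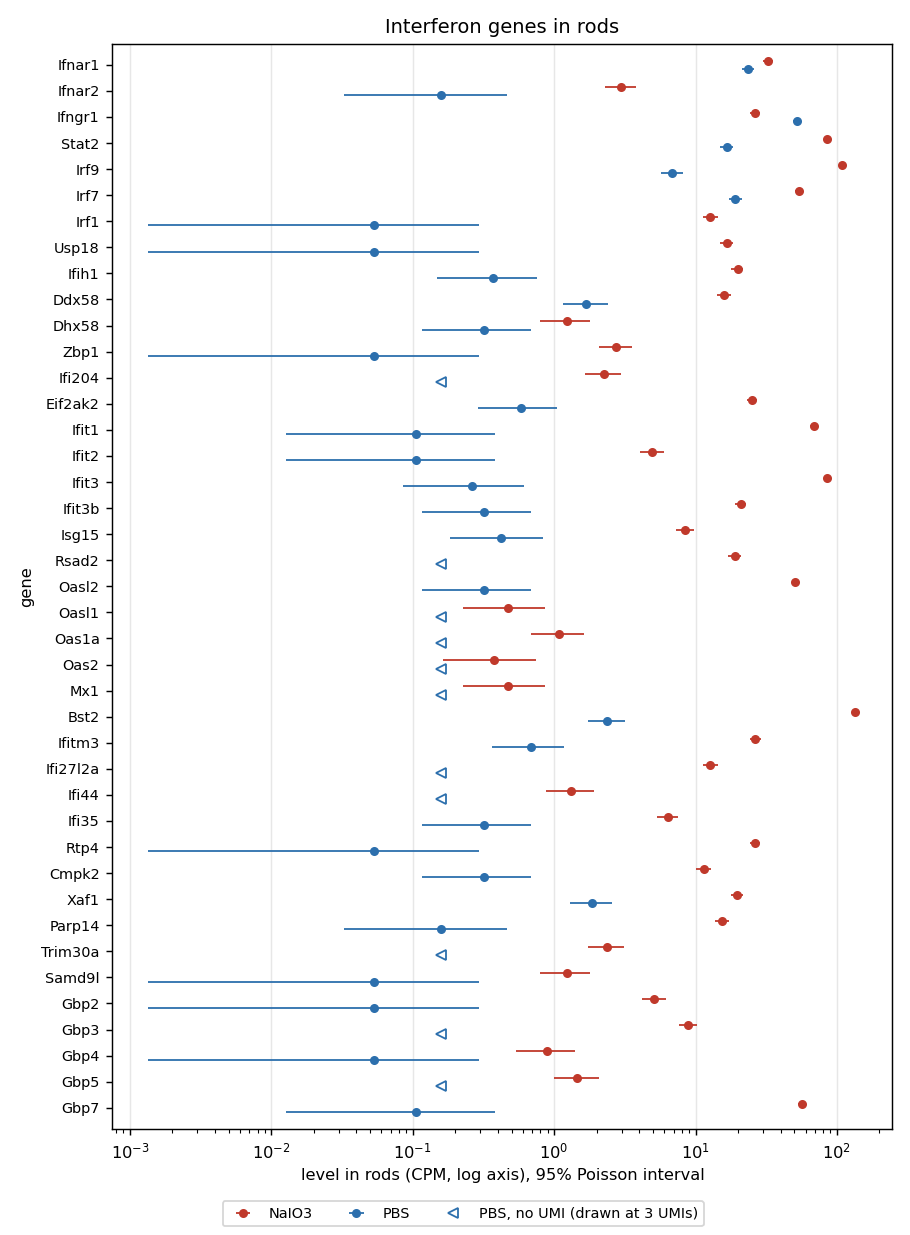
Level of 41 interferon genes in NaIO3 rods (upper point) and PBS rods (lower point) in CPM on a log axis with 95% exact Poisson intervals; open triangles are genes with no PBS UMI, drawn at 3 UMIs. All targets lie to the right in NaIO3 and Ifngr1 lies to the left, and the distance is widest for genes such as Ifit1 and Gbp7, which had 2 PBS UMIs each.

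Among the antiviral effectors in rods, 14 of 22 were higher and the others were below 5 CPM in both libraries. Bst2, which encodes tetherin, a membrane protein that holds budding virus at the surface, had 2840 UMIs (134 CPM) in NaIO3 rods and 45 UMIs (2.38 CPM) in PBS rods, a ratio of 56.2 (41.9 to 77.2). Ifit3 had 1798 UMIs (84.6 CPM) in NaIO3 rods and 5 UMIs (0.264 CPM) in PBS rods, a ratio of 320 (137 to 988); as a mean of per-cell CPM the ratio was 127. Ifit1, which binds foreign RNA caps, had 1455 UMIs in NaIO3 rods and 2 UMIs in PBS rods. Oasl2 had 1081 UMIs in NaIO3 rods and 6 UMIs in PBS rods, a ratio of 160 (73.5 to 438). Rsad2, which encodes viperin, had 401 UMIs in NaIO3 rods and 0 in PBS rods, at least 119-fold higher. One NaIO3 rod held 264 of the 401 Rsad2 UMIs, and without the rod with most target UMIs in each library, which in NaIO3 is this cell, 137 UMIs (6.48 CPM) remained, at least 40.7-fold higher. Rtp4 had 561 UMIs in NaIO3 rods and 1 UMI in PBS rods. The NaIO3 and PBS counts of these genes lay far apart at a similar total depth of rods. Of 17 targets with an ISRE in the promoter window, Ifit1, Ifit3, Isg15 and Bst2 among them, 14 were higher in rods, and of 11 with an entry but no ISRE 7 were. The rest of these targets were below 5 CPM in rods of both libraries and were not tested. All 25 targets tested in rods were higher, so the split only counts the genes that reached the filter.

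In cones Bst2 had 99 UMIs in NaIO3 and 0 in PBS (at least 19.4-fold higher), and Ifit3 had 92 UMIs in NaIO3 and 0 in PBS (at least 18.0-fold higher). The Bst2 level of 57.1 CPM (46.4 to 69.5) in NaIO3 cones did not exceed the 58.3 CPM that free RNA of the other classes would give by the estimate described below, while Ifit3 was at 53.1 CPM (42.8 to 65.1) with an estimate of 35.1 CPM. In PBS Müller glia 14 of 22 effectors had a UMI. Ifit3 was at 236 CPM in NaIO3 Müller glia and 102 CPM in PBS Müller glia, a ratio of 2.31 (1.54 to 3.65), and Ifit3b was at 73.0 CPM in NaIO3 and 66.4 CPM in PBS, a ratio of 1.10 (0.662 to 1.97). Ifitm3, which blocks viral entry, was at 384 CPM in NaIO3 Müller glia and 70.9 CPM in PBS Müller glia, a ratio of 5.41 (3.33 to 9.48). Ifit1 was at 166 CPM in NaIO3 Müller glia and 8.86 CPM in PBS Müller glia, from 2 PBS UMIs. The median depth of a Müller cell was 21567 UMIs in NaIO3 and 4301 UMIs in PBS.

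Bst2 and Ifi27l2a were highest in microglia, and Ifitm3 in endothelial cells. Ifi27l2a was at 1822 CPM in NaIO3 microglia and 247 CPM in PBS microglia, from 8 PBS UMIs, and Bst2 at 977 CPM in NaIO3 and 186 CPM in PBS, from 6 PBS UMIs. Ifitm3 was at 922 CPM in NaIO3 microglia with no PBS UMI, at least 9.94-fold higher. In endothelial cells it was at 2744 CPM in NaIO3 and 2211 CPM in the 3 PBS cells, whereas Bst2 was at 279 CPM in NaIO3 and 943 CPM in PBS and Isg15 at 205 CPM in NaIO3 and 413 CPM in PBS. Rsad2 and Ifit1 were also highest in endothelial cells, at 624 CPM and 576 CPM, above 97.5 CPM and 56.0 CPM in microglia. In 16 of 38 targets the PBS microglia gave no usable fold, since 3 UMIs there amount to 92.8 CPM.

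In bipolar cells 2 effectors passed the fold downwards, with part of their PBS UMIs in 1 cell. Ifit2 had 19 UMIs (5.18 CPM) in NaIO3 bipolar cells and 12 UMIs (24.7 CPM) in PBS bipolar cells, a ratio of 0.210 (0.0966 to 0.473). In rods it had 105 UMIs (4.94 CPM) in NaIO3 and 2 UMIs in PBS, a ratio of 46.8 (12.6 to 391), or 74.2 as a mean of per-cell CPM, at a level under the 5 CPM that a call needs. Ifit3 had 26 UMIs in NaIO3 bipolar cells and 7 UMIs in PBS bipolar cells, a ratio of 0.491 with an interval that covers 1 (0.208 to 1.34). Of the PBS UMIs, 6 of the 12 of Ifit2 and 5 of the 7 of Ifit3 were in the single PBS cell named above. Without the cell with most target UMIs in each library, Ifit2 still passed the fold downwards, at a ratio of 0.371 with an interval that covers 1 (0.140 to 1.15), and Ifit3 turned round to 1.70 (0.427 to 14.8). Irf9 kept a ratio of 16.1 (4.42 to 134) without those cells. With a stricter marker gate neither Ifit2 nor Ifit3 was called lower.

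The guanylate binding proteins, GTPases that act on membranes around intracellular microbes, were highest in endothelial cells in 5 of 5 cases. Gbp5 was at 255 CPM in NaIO3 endothelial cells and at 23.4 CPM in the next class, dendritic cells. Gbp4 was at 171 CPM in NaIO3 endothelial cells and 72.0 CPM in NK/T cells. In rods Gbp7 had 1197 UMIs (56.3 CPM) in NaIO3 and 2 UMIs in PBS, Gbp3 had 189 UMIs in NaIO3 and 0 in PBS (at least 56.1-fold higher), and Gbp2 had 108 UMIs in NaIO3 and 1 in PBS. In Müller glia Gbp2 was at 60.01 CPM in NaIO3 and 8.86 CPM in PBS, and Gbp7 was at 129 CPM in NaIO3 and 84.1 CPM in PBS, a ratio of 1.53 (0.976 to 2.55).

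Free RNA from one class can give UMIs in another, so the level in each class was set beside the carry-over implied by markers of the other classes. Endothelial markers reached rods at a median of 0.156% of their own level, microglia markers at 0.546% and Müller markers at 2.83%. Rod markers reached Müller glia at 41.0%. Single markers in rods ranged from 0.0233% to 7.25% for endothelial cells, 0.408% to 1.24% for microglia and 1.25% to 4.04% for Müller glia. The counts and multiples that follow use the medians alone and do not carry this range. Summed over all source classes, the lower bound of the measured level was above the carry-over for 29 of 38 targets in rods, 37 in Müller glia, 38 in microglia and 38 in endothelial cells. In rods Irf9 was 15.5 times, Stat2 15.3 times, Bst2 9.57 times, Gbp7 9.30 times and Ifit3 8.78 times its carry-over. The 9 targets that were not above it in rods were Ifi204, Oasl1, Oas2, Mx1, Ifi27l2a, Ifi44, Trim30a, Samd9l and Gbp4. Ifi27l2a had 271 UMIs (12.8 CPM) in NaIO3 rods and 0 in PBS rods, at least 80.5-fold higher, and its carry-over was 14.4 CPM. Cones and bipolar cells were above carry-over for 11 and 13 of 38 targets; of the targets called higher, 24 of 25 in rods, 11 of 16 in cones and 1 of 3 in bipolar cells were above it. Rod markers reached cones at 35.4%, and in cones Stat2 was at 54.2 CPM with a carry-over of 33.3 CPM. In bipolar cells Irf9, Usp18 and Cmpk2 were 4.43, 4.19 and 6.32 times their carry-over and Ifit3 was 0.475 times.

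**Figure D4:**
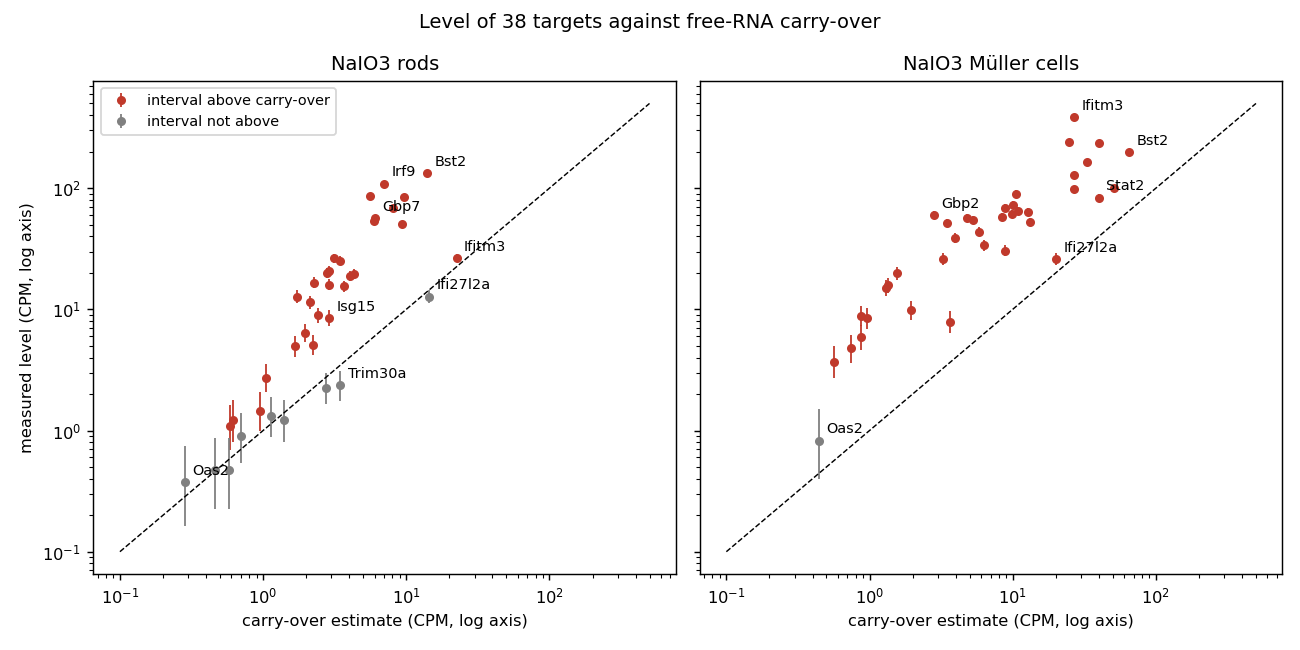
Measured level of 38 targets in NaIO3 rods (left) and NaIO3 Müller glia (right) against the free-RNA carry-over estimate, both in CPM on log axes, with 95% exact Poisson intervals and a dashed line of equality. In rods Irf9, Bst2 and Gbp7 lie above the line and Ifi27l2a and Trim30a on or below it; in Müller glia Oas2 is the 1 target not above it.

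The targets were spread unevenly among rods. After each rod was thinned to 1000 UMIs, 1971 of 4861 NaIO3 rods (40.5%, 39.2 to 41.9, exact binomial interval) and 292 of 4929 PBS rods (5.92%, 5.28 to 6.62) had at least 1 target UMI. Irf7 alone was found in 4.90% of these NaIO3 rods and 2.29% of these PBS rods. At least 3 target UMIs were found in 432 NaIO3 rods (8.89%) and in 0 of 4929 PBS rods, where the exact binomial interval reaches 0.0748%. The unthinned shares with at least 3 were 28.5% in NaIO3 and 0.920% in PBS. The variance of target UMIs per rod was 4.63 times the mean in NaIO3 and 1.05 times in PBS, and the top 10% of NaIO3 rods held 59.0% of the target UMIs. NaIO3 microglia, with targets in 98.8% of thinned cells, had 23.3% in the top 10%. Uneven spread was not particular to rods: the top 10% of NaIO3 cones held 61.3%, and the share in NaIO3 bipolar cells was also above that of rods. In PBS rods, where 5.92% had a target UMI, the top 10% held 100%. The variance in NaIO3 was 8.30 times the mean in Müller glia and 13.3 times in endothelial cells. In both classes 1 thinned cell weighs heavily on this value. The highest held 86 target UMIs in Müller glia, where the mean was 2.98, and 94 in endothelial cells, where the mean was 8.73. The variance was 3.10 times the mean in microglia, 1.69 times in cones and 1.52 times in bipolar cells. Targets tended to be found in the same rods: of 272 NaIO3 rods with an Ifit3 UMI, 75.7% (70.2 to 80.7) had a UMI of another target, and of 4589 rods without one, 37.0% (35.6 to 38.4). The shares with and without were 79.9% and 38.2% for Gbp7 and 76.6% and 38.2% for Oasl2. They lay closer for Stat2, at 57.9% and 35.5%, and Bst2, at 52.7% and 32.3%. Median depth before thinning was 2672.5 UMIs in rods with Ifit3 and 2690 UMIs in rods without.

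**Figure D5:**
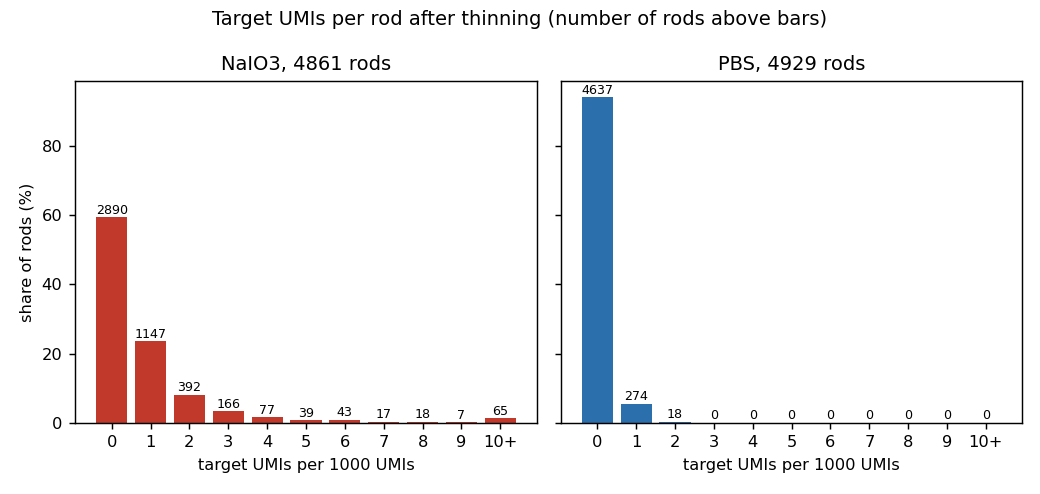
Share of rods in percent by the number of target UMIs per 1000 UMIs, for NaIO3 (left, 4861 rods) and PBS (right, 4929 rods), with the number of rods above each bar. NaIO3 rods extend to 10 or more target UMIs in 65 rods, and no PBS rod has over 2.

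Rods with 3 or more target UMIs also differed in genes outside the set. Igtp and Irgm1, immunity-related GTPases, were at 83.3 CPM and 146 CPM in the 432 rods with 3 or more and at 9.40 CPM and 18.7 CPM in the 2890 rods with 0. Socs3, a feedback inhibitor of cytokine signalling, was at 118 CPM in rods with 3 or more and 84.2 CPM in rods with 0. Markers of other classes were higher in those rods too. Müller markers summed to 883 CPM in rods with 3 or more and 410 CPM in rods with 0, microglia markers to 295 CPM in rods with 3 or more and 116 CPM in rods with 0, and endothelial markers to 86.0 CPM in rods with 3 or more and 33.0 CPM in rods with 0, while rod markers summed to 38617.5 CPM in rods with 3 or more and 49502 CPM in rods with 0. Over all rods these sums were 532 CPM in NaIO3 and 128 CPM in PBS for Müller markers, and 46738 CPM in NaIO3 and 89991 CPM in PBS for rod markers. Microglia markers summed to 157 CPM in NaIO3 rods and 19.8 CPM in PBS rods. The markers of other classes were thus higher in NaIO3 rods. Their part in the target levels was not tested beyond the carry-over above. NaIO3 rods with under 1500 UMIs had 990 CPM and those with 3000 or more had 941 CPM, where PBS rods of the same depths had 73.3 CPM and 48.2 CPM. Median mitochondrial share was 2.08% in NaIO3 rods and 7.04% in PBS rods. In rods with up to 2% mitochondrial UMIs the targets were at 995 CPM in NaIO3 and 72.5 CPM in PBS.

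The rest of the pathway was taken from a list of 117 further genes, 110 with a row. In rods 24 of 65 other targets had enough counts to be tested, of which 21 were higher and 0 lower. Of 10 other signal genes and regulators in rods, 8 were tested and 5 were higher, where 14.3% of all genes tested were higher. The limit of the 5 CPM filter given above holds for these counts too. Stat3 was at 193 CPM in NaIO3 rods and 25.8 CPM in PBS rods, and Socs3 at 96.8 CPM in NaIO3 rods and 0.423 CPM in PBS rods. Irgm1 had 811 UMIs in NaIO3 rods and 4 UMIs in PBS rods. None of 6 other receptor chains and kinases, 4 of them tested, passed the fold in rods. Among the other targets in Müller glia, 16 of 40 tested were higher and 0 lower (all genes tested: 17.5% higher). In bipolar cells 5 of 22 tested were higher and 1 lower (all genes tested: 11.6% higher, 7.71% lower). In cones 12 of 18 tested were higher and 0 lower (all genes tested: 11.6% higher), and in microglia 15 of 59 tested were higher and 1 lower (all genes tested: 6.24% higher, 25.5% lower). The chemokine Cxcl10 was at 284 CPM in NaIO3 endothelial cells, 161 CPM in NaIO3 microglia and 28.7 CPM in NaIO3 Müller glia.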

How the data were processed

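The authors deposited matrices of raw counts, 1 UMI count for each gene and barcode, from Cell Ranger 3.0.2 per the file headers with the genome build given as mm10 by the submitters' processing notes, which do not state an annotation. Barcodes were kept from 500 UMIs, 300 genes and up to 15% mitochondrial UMIs: 9441 of 9746 in NaIO3 and 5573 of 6242 in PBS. Scrublet in scanpy 1.11.5, run per library at an expected rate of 6%, removed 159 kept NaIO3 cells. It marked 0 PBS cells and so did not work in that library.

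Classes were gated per cell on marker UMIs per 10000, with thresholds chosen after the marker distributions were seen; 117 rods, 12 cones, 11 bipolar cells and 14 Müller glia of NaIO3 lay within 20% above a threshold. Cells over several gates (467 in NaIO3, 101 in PBS) or none (445 in NaIO3, 5 in PBS) were left out, and amacrine cells (9 in NaIO3, 23 in PBS) were not compared. Counts were summed per class and library and divided by the class total. With 1 library per group, the comparison is a fold with exact intervals (scipy 1.17.1), tested on simulated data with known fold changes. Carry-over is the median level of a class's markers (20 CPM or more there) in another class as a share of their own, times the gene's level in the source, summed over sources; it was computed for NaIO3. The members, lists and roles were chosen with earlier results of these data known. All members could be named; of other pathway genes, the 3 highest and 3 lowest ratios past the fold in each list and class could be, and their levels elsewhere were chosen after their values were seen.

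In the GENCODE M21 transcripts, Ifit3 shares 6.57% of the 90-base stretches in its last 500 bases with Ifit3b, Oas1a 42.3% with Oas1g, Trim30a 17.8% with Trim30d, Ifnar2 16.4% with Gm21970 and Ifng 10% with Gm49751, so the split within these pairs is uncertain; the shares of Gbp3, Gbp4 and Parp14 reached 3.48% at most. TMM factors came from edgeR 4.0.16. Other filters, gates and scalings were run as alternatives.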

Additional observations from a re-analysis of the deposited data

Results flagged for a closer look

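The interval of Ifit2 lay above 1 in rods and below 1 in bipolar cells, although its 4.94 CPM in NaIO3 rods is under the 5 CPM that a call needs. Its ratio of NaIO3 over PBS was 46.8 in rods (105 UMIs in NaIO3, 2 UMIs in PBS) and 0.210 in bipolar cells (19 UMIs in NaIO3, 12 UMIs in PBS). With 1 library per group the difference between the classes was not tested. Of the PBS UMIs in bipolar cells 6 came from 1 cell, and without the cell with most target UMIs in each library the bipolar ratio was 0.371 (0.140 to 1.15). With the stricter marker gate Ifit2 was not called lower in bipolar cells.

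Cells over the marker cuts of several classes enter no comparison, and in the NaIO3 library they held 100 UMIs of Ifng in 35 cells, above the 0 UMIs in all PBS barcodes. Such NaIO3 cells had a median of 26350 UMIs.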

How the results depend on the processing

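No paired analysis was possible because each group is 1 library. The summed target ratio stayed above 1 in every class and alternative run. In rods it was 13.6 with a mitochondrial limit of 5%, 13.5 with a stricter marker gate and 13.5 with TMM scaling, and 39 members passed the fold with no filter on low values. In cones it was 9.45 with the stricter gate, with 8 members higher. In bipolar cells it was 2.50 with no mitochondrial limit (10 members higher), 4.81 with the stricter gate and 2.06 with doublets and mixed cells kept (6 higher). Without the cell with most target UMIs in each library, an alternative chosen after seeing the data, it was 3.13 (5 higher); Ifit3 in bipolar cells turned round to 1.70 and Ifit2 still passed the fold downwards at 0.371. With the stricter gate Ifit2 was not called lower in bipolar cells, and Ifngr1 was the 1 member that was. In Müller glia the summed target ratio was 3.997 with doublets and mixed cells kept. In microglia TMM scaling gave 10.3 and 16 members higher; 14 were higher with no mitochondrial limit and 16 with doublets and mixed cells kept. The cause was not tested. The 5% limit was not run for cones (1 PBS cell) and bipolar cells (2). TMM scaling multiplies all ratios of a class by 1 factor; in rods Ifngr1 was then 0.388, past the fold downwards, Irf9 12.3 and Ifnar1 1.06. As a mean of per-cell CPM, 6 of the 30 rod ratios with a PBS UMI left their counting interval: Ifnar1 1.15, Irf9 12.8, Ifit3 127, Ifitm3 15.7, Cmpk2 594 and Xaf1 6.20. Depth limits the PBS side: 11 microglia, 39 Müller glia and 3 endothelial cells.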
